A study of Mus musculus with 4 samples.

Results

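The 10 genes described here encode the NF-kB transcription factor subunits (Nfkb1, Nfkb2, Rel, Rela and Relb) and inhibitors of the pathway or proteins related to them (Nfkbia, Nfkbib, Nfkbie, Bcl3 and Tnfaip3). The latter are together called inhibitors here, which is a group name and not a statement of what each does. They were taken by gene symbol from the tables of 23305 genes, and all 10 were found. The libraries come from follicular B cells that were sorted from the spleens of female mice as B220 positive, CD23 high and CD21 low, without CD80 or switched isotypes, and are described as quiescent. There were 2 libraries from wild-type (WT) C57BL/6 mice and 2 from Ets1-/- mice, in which the gene of the transcription factor Ets1 is mutated in the germ line, so that all cells carry the mutation, and which were on a mixed C57BL/6 x 129Sv background. For these libraries, ages and any pooling of mice were not given in the sources used here. Strain and genotype differ together in these groups and cannot be told apart. Each value is an FPKM (fragments mapped to a gene, divided by the length of its transcript and by the mapped reads of the library), so that levels of different genes can be compared.

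NF-kB proteins work as dimers that are held in the cytoplasm of resting cells by the IkB inhibitors. In the classical pathway a signal from the B cell receptor, CD40 or a Toll-like receptor activates the IKK kinases, IkB proteins are degraded, and dimers of the Nfkb1 product with Rela or Rel enter the nucleus. In the alternative pathway, which the BAFF receptor drives in mature B cells, the kinase NIK triggers processing of the Nfkb2 precursor, and its product pairs with Relb. Several genes of the system, including Nfkbia and Tnfaip3, are themselves NF-kB targets and act as negative feedback. The comparison asks which of these transcripts differ in sorted follicular B cells from Ets1-/- mice.

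The 4 libraries differed in ways that bear on the values below. The read numbers are not part of the files. An approximate relative depth, read from the commonest ratio among the 602 to 806 genes below 0.05 FPKM in a pair of libraries, of which 28.9% to 41.4% shared that ratio within 0.05 on the log2 scale, differed 2.01-fold between the deepest library (WT replicate 2) and the shallowest (Ets1-/- replicate 2). The median absolute difference between replicates on the log2(FPKM + 1) scale was 0.126 in WT and 0.259 in Ets1-/- B cells. B cell markers were abundant in all libraries, with Cd79a between 1407 and 2051 FPKM. The level of Ets1 itself, between 229 and 275 FPKM, does not check the labels, since the mutation removes only some of the exons. Transcripts of 12 neutrophil marker genes summed to 118 and 95.7 FPKM in WT and to 2621 and 720 FPKM in Ets1-/- libraries. All 12 were higher without overlap between the genotypes, against 19.4% of all genes tested. Of the 12, 3 passed the test described below, against 1.70% of all genes tested. None of the 12 T cell markers was at 0, and their sum was 145 and 120 FPKM in WT and 122 and 158 FPKM in Ets1-/- libraries. That test was passed by 0 of the 10 follicular B cell markers and 0 of the 12 T cell markers. It was also passed by 0 of the 7 marginal zone B cell markers and 0 of the 7 tested plasma cell markers. In limma an unadjusted p under 0.05 was found for 1, 2, 3 and 2 of them in turn, against 13.3% of all genes. The follicular gene was lower in Ets1-/-, the T cell genes 1 higher and 1 lower, the 3 marginal zone genes lower and the 2 plasma cell genes higher. Both Ets1-/- values lay above both WT values for 0, 2, 1 and 3 markers in turn, against 19.4% of all genes. They lay below them for 3, 5, 3 and 3, against 22.2%. In such bulk samples, fewer cells of a type and less RNA per cell cannot be told apart.

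Sequence upstream of 4 members is shown because these are the genes on which the values below turn, namely the 3 whose genotypes did not overlap (Nfkbia, Tnfaip3 and Nfkb2) and the one whose replicates differed most (Rel). The stretches are the 250 bases before a transcript start given by RefSeq (GRCm38.p6), each placed on the mm9 genome by an exact match, and are printed along the gene's strand. Capitals mark matches to a loose palindromic form of the kB site, the DNA element bound by NF-kB, which is GG, a pair of purines, any 2 bases, a pair of pyrimidines and CC. Adjoining matches that overlap are printed as 1 run of capitals. The Nfkbia stretch lies at chr12:56593635-56593884 on the minus strand, that of Tnfaip3 at chr10:18735217-18735466 on the minus strand, that of Nfkb2 at chr19:46378977-46379226 on the plus strand, and that of Rel at chr11:23670970-23671219 on the minus strand.
Nfkbia: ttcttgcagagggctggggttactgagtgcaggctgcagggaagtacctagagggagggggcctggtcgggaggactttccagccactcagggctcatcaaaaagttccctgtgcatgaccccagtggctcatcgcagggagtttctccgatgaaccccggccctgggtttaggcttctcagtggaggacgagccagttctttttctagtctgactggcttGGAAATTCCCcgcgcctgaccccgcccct
Tnfaip3: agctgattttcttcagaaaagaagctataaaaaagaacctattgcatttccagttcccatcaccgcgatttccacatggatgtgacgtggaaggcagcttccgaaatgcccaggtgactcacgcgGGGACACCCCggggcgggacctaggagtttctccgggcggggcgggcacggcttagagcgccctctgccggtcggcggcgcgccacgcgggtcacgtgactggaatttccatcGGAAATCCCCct
Nfkb2: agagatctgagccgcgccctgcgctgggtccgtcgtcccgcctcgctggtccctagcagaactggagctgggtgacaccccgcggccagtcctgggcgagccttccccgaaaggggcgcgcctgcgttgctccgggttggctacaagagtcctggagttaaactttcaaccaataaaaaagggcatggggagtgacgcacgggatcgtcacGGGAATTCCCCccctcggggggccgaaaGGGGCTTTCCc
Rel: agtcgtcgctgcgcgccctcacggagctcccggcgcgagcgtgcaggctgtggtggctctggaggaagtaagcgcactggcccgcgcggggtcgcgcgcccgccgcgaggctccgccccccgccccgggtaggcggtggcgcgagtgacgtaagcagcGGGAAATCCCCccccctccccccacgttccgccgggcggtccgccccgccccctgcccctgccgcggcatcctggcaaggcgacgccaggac

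The promoter table held 11 windows for the 8 members matched, with 3 for Nfkb2 and 2 for Tnfaip3, of which the window at the outermost start is printed. The kB form was present in 7 of the 11 windows, those of Rel, Nfkbia and Nfkbie, all 3 of Nfkb2 and 1 of Tnfaip3, and was not found for Rela, Nfkbib and Bcl3. Of all 32851 windows of the same length in that table, 9.55% held it. The printed window of Nfkb2 held GGGAATTCCC, 39 to 30 bases before the start, with an overlapping match, and GGGGCTTTCC, 11 to 2 bases before it. The match in Nfkbia, GGAAATTCCC, lies 29 to 20 bases before the start, and the nearer of the 2 matches in Tnfaip3, GGAAATCCCC, lies 12 to 3 bases before it. The same 10 letters occur in Rel, 91 to 82 bases before the start. The match in Nfkbie, GGGGGATTCC, lies 106 to 97 bases before the start. A form of the ETS site, CGGAAG on either strand, was found in Nfkbie and Tnfaip3, apart from their kB matches, and in 13.6% of all windows. Nfkb1 and Relb were not among the matched members. The GGAA core of ETS sites is also part of several kB matches. Such matches describe letters and do not show binding.

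All 10 members were well expressed in the sorted follicular B cells, between 27.3 and 283 FPKM, which placed each of them between the 85.9th and the 98.6th percentile of the 23305 genes in every library. In WT cells the order of mean FPKM was Nfkbia, Nfkb2, Nfkb1, Rela, Relb, Nfkbie, Rel, Bcl3, Nfkbib and Tnfaip3. The highest mean, 176 ± 21.5 FPKM (SD, n = 2) for Nfkbia, was 6.01 times the lowest, 29.2 ± 2.58 FPKM (SD, n = 2) for Tnfaip3. Of the 9 pairs of neighbours in this order, 4 overlapped in their WT values, namely Relb with Nfkbie, Nfkbie with Rel, Rel with Bcl3, and Nfkbib with Tnfaip3. In Ets1-/- cells Nfkbia was again first, whereas Nfkb1 came before Nfkb2, and Tnfaip3 moved from position 10 to position 7.

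**Figure D1:**
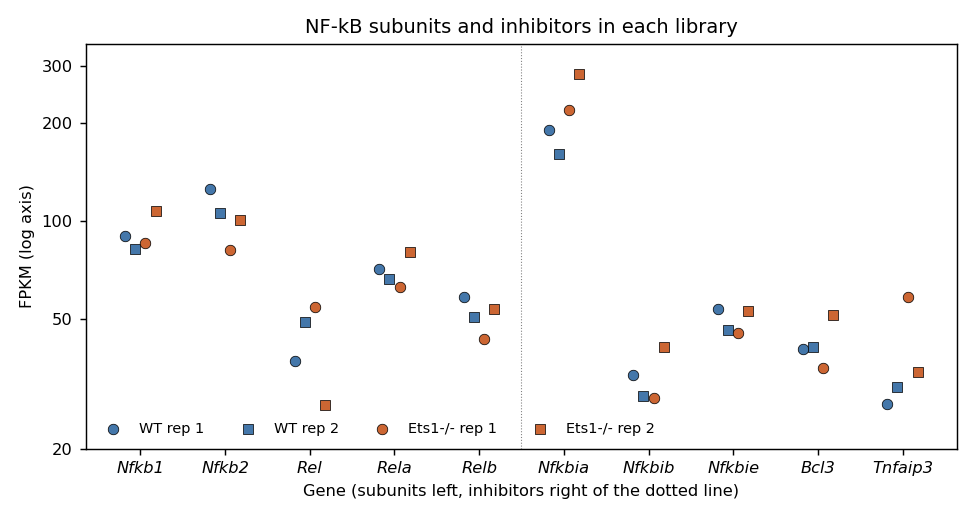
FPKM (log axis) of the 10 genes in each library, with blue for WT, orange for Ets1-/-, circles for replicate 1 and squares for replicate 2. Nfkbia and Tnfaip3 lie higher and Nfkb2 lies lower in both Ets1-/- libraries, whereas the genotypes of the other 7 genes overlap.

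No member passed the test for a change between the genotypes. Limma with Benjamini-Hochberg adjustment was fitted to log2(FPKM + 1) of the 10949 genes with a mean of at least 1 FPKM in either genotype, and a gene was called changed at a difference of at least 2-fold with an adjusted p of 0.05 or less. By this rule 1.70% of all genes tested were called (186 of 10949), and 0 of the 10 members, all of which were tested. At an unadjusted p under 0.05 the share was 13.3% of all genes and again 0 of the 10 members. Both Ets1-/- values lay above both WT values for 2 members, Nfkbia and Tnfaip3, against 19.4% of all genes, and below them for 1 member, Nfkb2, against 22.2% of all genes. The members' counts are near these shares of all genes and are no result about the members. The members' log2 differences ran from -0.35 to 0.60 with a median of 0.05 (all genes -0.02), and the median absolute difference was 0.153, against 0.158 for all genes. A miss of the threshold with 2 libraries per genotype does not show that the levels were equal, and the 95% confidence intervals of 7 members lay within a 2-fold change in either direction while those of Rel, Nfkbia and Tnfaip3 reached past it.

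**Figure D2:**
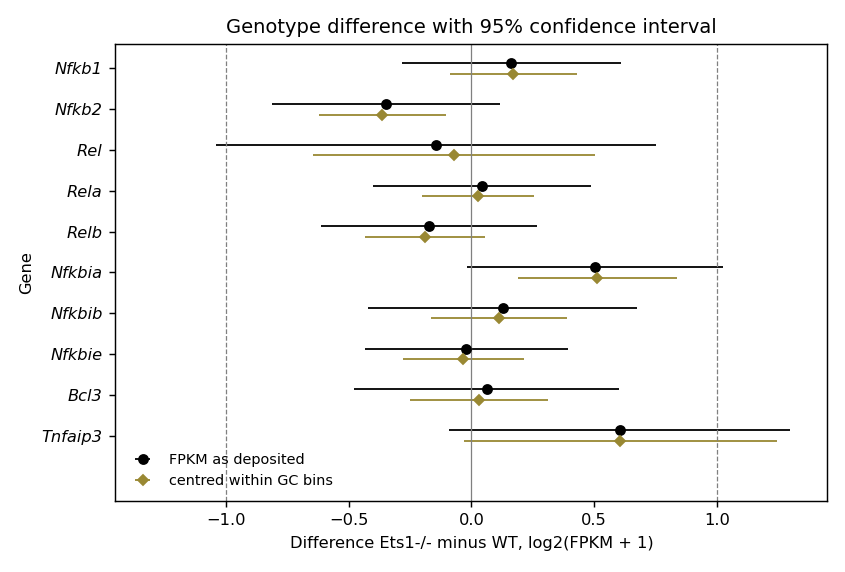
Difference between Ets1-/- and WT on the log2(FPKM + 1) scale with its 95% confidence interval from limma, from the deposited values (black circles) and after centring each library within bins of transcript GC content (ochre diamonds). Dashed lines mark 2-fold changes, and the black intervals of all 10 genes include 0.

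Of the subunits of the classical pathway, Nfkb1, whose product pairs with Rela or Rel, had 90.0 and 81.9 FPKM in the WT replicates and 85.9 and 107.7 FPKM in the Ets1-/- replicates. One Ets1-/- value lay between the WT values and the other above both, and the log2 difference was 0.16 (standard error 0.17, 95% confidence interval -0.28 to 0.61, adjusted p = 0.826 from limma). Nfkb1 lies on mm9 chromosome 3 from 135247619 to 135354511. Rela, the transactivating subunit of the main classical dimer, had 71.4 and 66.4 FPKM in WT and 63.0 and 80.1 FPKM in Ets1-/- libraries. Both WT values of Rela fell between the Ets1-/- values, with a log2 difference of 0.04 (standard error 0.17, adjusted p = 0.973 from limma).

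Rel, which encodes c-Rel, the lymphocyte subunit needed for B cell proliferation after activation, varied more between replicates than between genotypes. It had 37.3 and 48.9 FPKM in WT and 54.3 and 27.3 FPKM in Ets1-/- libraries, so that the Ets1-/- libraries held both its highest and its lowest value. The ratio between the Ets1-/- replicates was 1.99, and the log2 difference between genotypes, -0.14, had the widest interval of the 10 genes, from -1.04 to 0.75 (adjusted p = 0.944 from limma). The sign of this difference depended on the library left out, with 0.34 without Ets1-/- replicate 2 and -0.63 without Ets1-/- replicate 1. Rel lies on chromosome 11 from 23641514 to 23670970.

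In the alternative pathway, Nfkb2 was the only subunit whose deposited values did not overlap between the genotypes. It had 125 and 106 FPKM in WT and 81.4 and 100.5 FPKM in Ets1-/- libraries, and the WT mean was 1.27 times the Ets1-/- mean. The gap between the nearest values of the genotypes was smaller than the gap between the replicates of either genotype. The log2 difference of Nfkb2 was -0.35 (standard error 0.18, 95% confidence interval -0.81 to 0.12, adjusted p = 0.545 from limma). The difference was -0.20 without Ets1-/- replicate 1 and -0.50 without Ets1-/- replicate 2. Nfkb2 lies on chromosome 19 from 46379227 to 46386580. Relb, whose product pairs with that of Nfkb2, had 58.7 and 50.8 FPKM in WT and 43.5 and 53.7 FPKM in Ets1-/- libraries, and these values overlap (log2 difference -0.17, standard error 0.17, adjusted p = 0.809 from limma). This difference was -0.02 without Ets1-/- replicate 1 and -0.32 without Ets1-/- replicate 2.

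Ratios within a library compare genes that share its depth and scaling. The ratio of Relb to Nfkb2 was 0.469 and 0.479 in WT and 0.535 and 0.535 in Ets1-/- libraries. The replicates thus lay closer together in this ratio than in either gene. As a share of the summed FPKM of the 5 subunits, Nfkb2 made up 32.7% and 29.96% in WT and 24.8% and 27.2% in Ets1-/- libraries, while Nfkb1 made up 23.5% and 23.1% in WT and 26.2% and 29.2% in Ets1-/- libraries. Nfkb2 was the largest part in both WT libraries, and Nfkb1 in both Ets1-/- libraries. The sum of the 5 subunits overlapped between the genotypes, with 383 and 354 FPKM in WT and 328 and 369 FPKM in Ets1-/- libraries. No test was made on these ratios and shares, some of which were chosen after their values were seen, and a permutation of 2 libraries against 2 cannot give a p below 0.333.

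**Figure D3:**
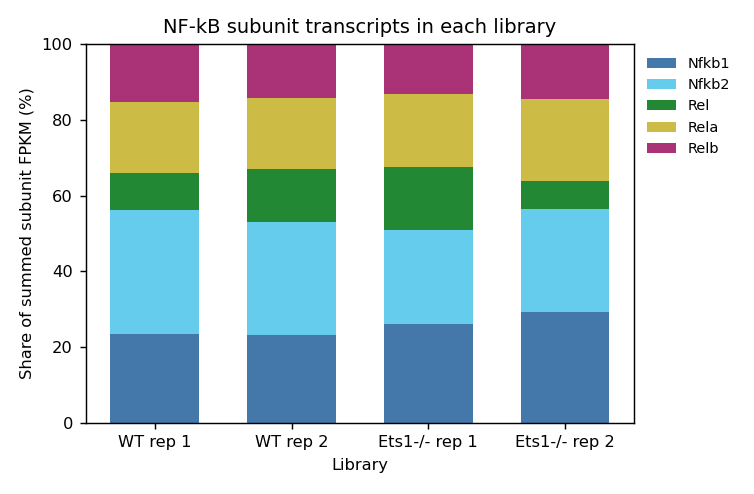
Share of the summed FPKM of the 5 subunits (%) taken by each subunit in each library. Nfkb2 has the largest share in both WT libraries and Nfkb1 in both Ets1-/- libraries, and Rel ranges from 7.40% to 16.6% between the Ets1-/- replicates.

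Among the inhibitors, Nfkbia, which encodes IkB alpha, the IkB that is degraded and resynthesised fastest after a signal, had the highest level of all members. It had 191 and 161 FPKM in WT and 219 and 283 FPKM in Ets1-/- libraries. Both Ets1-/- values lay above both WT values, and the ratio of means was 1.43. The log2 difference of 0.50 (standard error 0.20, 95% confidence interval -0.02 to 1.03) had an adjusted p of 0.391 in limma, and the p before adjustment was 0.0550. It was 0.32 without Ets1-/- replicate 2 and 0.69 without Ets1-/- replicate 1. Nfkbia lies on chromosome 12 from 56590398 to 56593634.

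The values of the other IkB genes overlapped between the genotypes. Nfkbib, which encodes IkB beta, had 33.7 and 29.1 FPKM in WT and 28.6 and 41.1 FPKM in Ets1-/- libraries, with a log2 difference of 0.13 (adjusted p = 0.904 from limma). Nfkbie, which encodes IkB epsilon, an inhibitor mostly of Rel and Rela dimers, had 53.6 and 46.2 FPKM in WT and 45.4 and 53.1 FPKM in Ets1-/- libraries, and its log2 difference of -0.02 (standard error 0.16, adjusted p = 0.990 from limma) was the smallest in size of the 10 genes. The share of Nfkbia in the summed FPKM of Nfkbia, Nfkbib and Nfkbie was 68.6% and 68.1% in WT and 74.7% and 75.03% in Ets1-/- libraries. Set against Rela in the same library, the ratio of Nfkbia was 2.67 and 2.42 in WT and 3.47 and 3.53 in Ets1-/- libraries. The summed IkB transcripts per summed subunit transcripts were 0.727 and 0.666 in WT and 0.892 and 1.02 in Ets1-/- libraries. This share and these ratios all contain Nfkbia, so they are not independent of its values, and no test was made on them.

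Bcl3, an unusual nuclear IkB protein that binds dimers of the Nfkb1 and Nfkb2 products, had 40.6 and 41.1 FPKM in WT and 35.3 and 51.5 FPKM in Ets1-/- libraries. The WT replicates nearly coincided and lay between the Ets1-/- replicates, so no direction can be given (log2 difference 0.06, adjusted p = 0.969 from limma). Bcl3 and Relb both lie on chromosome 7, where Bcl3 spans 20393811 to 20408119 and Relb 20191566 to 20214787.

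Tnfaip3, the ubiquitin-editing enzyme that shuts off signaling upstream of IKK, had the largest difference of the 10 genes and an uneven one. It had 27.4 and 31.0 FPKM in WT and 58.3 and 34.4 FPKM in Ets1-/- libraries. Replicate 1 of Ets1-/- stood far above the other libraries, while replicate 2 lay just above the WT values. The ratio of means was 1.59 and the log2 difference 0.60 (standard error 0.27, 95% confidence interval -0.09 to 1.30), with an adjusted p of 0.450 in limma, and the p before adjustment was 0.0758. Without Ets1-/- replicate 1 the difference was 0.23, and without Ets1-/- replicate 2 it was 0.98. Tnfaip3 lies on chromosome 10 from 18720716 to 18735463.

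The genes whose pattern over the 4 libraries was most like that of Tnfaip3, by the Euclidean distance between log2(FPKM + 1) values centred on each gene's mean, were Gprasp1 (distance 0.088), Gcnt1 (0.089) and Inpp4b (0.099), and 28 of the genes tested lay within 0.2. Gprasp1 had 8.04 and 9.46 FPKM in WT and 18.02 and 9.66 FPKM in Ets1-/- libraries. All 3 genes were thus highest in Ets1-/- replicate 1, and with 4 libraries this likeness is a description only.

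The Ets1-/- replicates differed from each other by the base composition of the transcripts, and most members followed the pattern. Over the 2448 tested genes with the lowest GC content, at most 45.4%, the median log2 difference of Ets1-/- replicate 1 minus replicate 2 was 0.36, and over the 2448 with the highest, at least 55.0%, it was -0.27. GC content was known for 89.4% of the genes tested, from the longest coding transcript. Rel, with 44.1% GC, was the only member in the first of these sets, and Tnfaip3, with 49.4%, lay between 45.4% and 50.2%, where the median was 0.01. These were the members that were higher in Ets1-/- replicate 1, by 0.97 for Rel and 0.74 for Tnfaip3, whereas the other 8 members, with 52.9% to 62.6% GC, were lower in replicate 1 by 0.22 to 0.53. In WT the medians of replicate 1 minus replicate 2 were -0.10 in the lowest and 0.07 in the highest set.

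**Figure D4:**
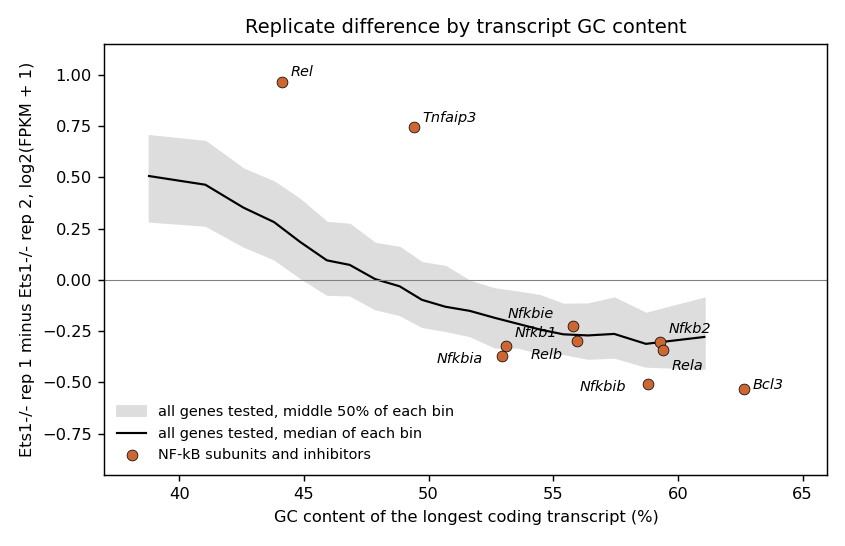
Difference between the Ets1-/- replicates on the log2(FPKM + 1) scale against the GC content of each gene's longest coding transcript (%). The line is the median and the band the middle 50% of all genes tested in 20 bins, and orange points are the members, of which Rel and Tnfaip3 lie above 0 and above the band.

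With each library centred within 20 bins of GC content, an adjustment chosen after the data were seen, the differences between genotypes stayed close to those above, at 0.51 for Nfkbia, 0.61 for Tnfaip3 and -0.36 for Nfkb2. The standard errors of all 10 members were smaller, that of Tnfaip3 only slightly (0.27 before and 0.26 after centring). The adjusted p from limma was then 0.0837 for Nfkbia (95% confidence interval 0.19 to 0.84), 0.114 for Nfkb2 (-0.62 to -0.10) and 0.260 for Tnfaip3 (-0.03 to 1.24), so that again 0 of the 10 members were called. After centring, the Ets1-/- replicates of Nfkb2 differed by 0.01 and those of Nfkbia by -0.18, while Tnfaip3 still differed by 0.82 and Rel by 0.68. In this fit 2 of the 10 members, Nfkbia and Nfkb2, had an unadjusted p under 0.05, against 20.9% of the 9792 genes with a known GC content, of which 2.90% were called. The values of 6 members then did not overlap. Nfkb1, Rela, Nfkbia and Tnfaip3 were higher in both Ets1-/- libraries, against 25.0% of these genes, and Nfkb2 and Relb were lower, against 25.4%. For Rela the separation was only that between 6.1438 in WT replicate 1 and 6.1441 in Ets1-/- replicate 1 on the centred log2 scale. Its genotype difference was 0.03 (standard error 0.09). The 4 higher and 2 lower members are counts near these shares of all genes and are no result about the members.

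Transcripts that are induced within minutes of activation or handling, which include Fos and Jun, were mostly higher in the Ets1-/- libraries. Of 14 such immediate early genes 9 were higher in both Ets1-/- libraries, against 19.4% of all genes, with a median log2 difference of 0.77. By limma 0 were called, while 5 had an unadjusted p under 0.05, against 13.3% of all genes. Their sum was 3066 and 5289 FPKM in WT and 7726 and 7967 FPKM in Ets1-/- libraries. Several were already abundant in WT, with Fos at 687 and 1283 FPKM and Jun at 549 and 991 FPKM, whereas Atf3 had 1.03 and 3.91 FPKM. The WT levels of the members are thus not shown to be those of unstimulated cells. Within WT the order was opposite for Nfkbia, which was higher in replicate 1 where the sum of these genes was lower, and Tnfaip3 had the same order as the sum. Within Ets1-/- the orders were exchanged, with Nfkbia higher in replicate 2, where the sum was slightly higher, and Tnfaip3 higher in replicate 1. The order of this sum was not that of every gene in it. Fos, Jun and Junb were higher in Ets1-/- replicate 2, whereas Fosb, Egr1 and Dusp1 were higher in Ets1-/- replicate 1. The neutrophil sum given above was 2621 FPKM in Ets1-/- replicate 1 and 720 FPKM in replicate 2, whereas Nfkbia was higher in replicate 2 and Tnfaip3 in replicate 1. The part of either group of transcripts in the levels of Nfkbia and Tnfaip3 was not tested.

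Among the genes that feed signals into NF-kB, Traf1 fell and no other passed the test. Of 32 receptors, adaptors and kinases 31 were tested, with a median log2 difference of 0.00, and 30 lay within 2-fold. The share called over all genes was 1.70%. In limma 2 of the 31 had an unadjusted p under 0.05, against 13.3% of all genes. Both Ets1-/- values lay above both WT values for 5, against 19.4%, and below them for 6, against 22.2%. Traf1, an adaptor of TNF receptors and also a known NF-kB target, was the 1 gene called, at 30.7 and 32.4 FPKM in WT and 6.38 and 6.47 FPKM in Ets1-/- libraries (log2 difference -2.13, standard error 0.13, adjusted p = 0.00462 from limma). The next in size was Tnfrsf13c, the BAFF receptor, at 249 and 220 FPKM in WT and 172 and 159 FPKM in Ets1-/- libraries, with a log2 difference of -0.50 that did not pass (adjusted p = 0.256 from limma). Tab1, which activates the kinase TAK1, followed at 11.05 and 9.79 FPKM in WT and 6.70 and 9.43 FPKM in Ets1-/- libraries (log2 difference -0.35, adjusted p = 0.586 from limma), and the difference was -0.13 without Ets1-/- replicate 1. The kinase subunits Chuk, Ikbkb and Ikbkg had log2 differences of 0.06, -0.08 and 0.00, and Map3k14, which encodes NIK, one of 0.01. Ltbr, below 1 FPKM on average in both genotypes, was not tested.

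Of 19 further genes grouped as inhibitors, nuclear IkB genes included, 18 were tested and 0 were called, against 1.70% of all genes. Their median log2 difference was -0.04, with a range from -0.40 to 0.36. In limma 1 of the 18 had an unadjusted p under 0.05, against 13.3% of all genes. That gene was N4bp1, at 10.8 and 9.76 FPKM in WT and 13.5 and 13.5 FPKM in Ets1-/- libraries (log2 difference 0.36, adjusted p = 0.348 from limma). The nuclear IkB gene Nfkbid had the largest difference in size, -0.40, with 76.3 and 108 FPKM in WT and 85.2 and 55.4 FPKM in Ets1-/- libraries, which overlap (adjusted p = 0.683 from limma), and the difference was -0.09 without Ets1-/- replicate 2 and -0.71 without Ets1-/- replicate 1. Itch, a ubiquitin ligase that acts with Tnfaip3, had 23.5 and 22.4 FPKM in WT and 22.1 and 15.7 FPKM in Ets1-/- libraries (log2 difference -0.29, adjusted p = 0.668 from limma), and the difference was -0.05 without Ets1-/- replicate 2. Tnip3, near 0.05 FPKM in every library, was the gene not tested.

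Of 32 genes commonly taught as NF-kB targets, 29 were tested and 4 were called, 3 lower and 1 higher in Ets1-/- cells, with a median log2 difference of -0.10. The share called over all genes was 1.70%. Both Ets1-/- values lay above both WT values for 5 of the 29, against 19.4% of all genes, and below them for 11, against 22.2%. An unadjusted p under 0.05 in limma was found for 9 of the 29, 4 higher and 5 lower, against 13.3% of all genes. Beside Traf1, the chemokine genes Ccl3 and Ccl4 fell. Ccl3 had 7.37 and 9.05 FPKM in WT and 1.63 and 1.28 FPKM in Ets1-/- libraries (log2 difference -1.90, adjusted p = 0.0144 from limma), and Ccl4 had 6.18 and 7.81 FPKM in WT and 2.16 and 2.12 FPKM in Ets1-/- libraries (log2 difference -1.34, adjusted p = 0.0349 from limma). The chemokine gene Ccl22 rose, from 0.263 and 0.283 FPKM in WT to 2.49 and 3.33 FPKM in Ets1-/- libraries (log2 difference 1.61, adjusted p = 0.0266 from limma). Of these 4 genes, Traf1 alone was called in each of the 4 fits that left out 1 library. Of 12 macrophage and dendritic cell markers, cells in which Ccl3, Ccl4 and Ccl22 can also be expressed, 10 were tested. Of these 1 was called, Emr1, against 1.70% of all genes, and 3 had an unadjusted p under 0.05 in limma, against 13.3%. Both Ets1-/- values lay above both WT values for 4, against 19.4%, and below them for 0, against 22.2%. The sum of the 12 markers was 76.6 and 41.5 FPKM in WT and 177 and 115 FPKM in Ets1-/- libraries. Its largest part in each library was Lyz2, at 42.2 and 17.95 FPKM in WT and 102 and 45.7 FPKM in Ets1-/- libraries. Emr1 had 2.35 and 2.63 FPKM in WT and 23.5 and 37.2 FPKM in Ets1-/- libraries. The genotypes overlapped for Csf1r, Cd68, C1qa, C1qb, C1qc and Flt3, so the sum does not stand for the whole list. The part of macrophages and dendritic cells in the levels of Ccl3, Ccl4 and Ccl22 was not tested. Bcl2a1a, Bcl2a1b and Bcl2a1d are near-identical copies whose reads may be split between them, so no direction is given for them.

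**Figure D5:**
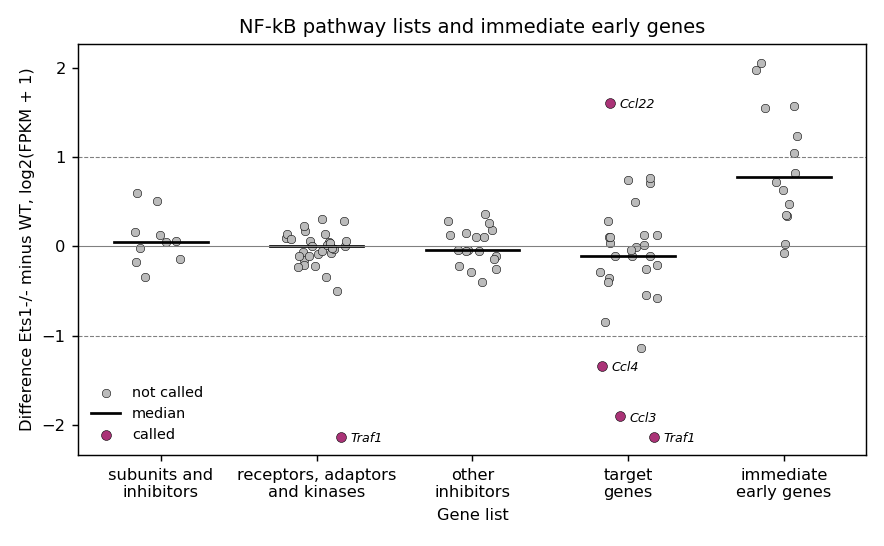
Difference between Ets1-/- and WT on the log2(FPKM + 1) scale for each tested gene of 5 lists, with the median of each list as a bar and dashed lines at 2-fold. Called genes are purple and named, and they are Traf1, which is on 2 lists, Ccl3, Ccl4 and Ccl22, with none among the subunits and inhibitors.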

How the data were processed

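RNA from sorted splenic follicular B cells was sequenced in 4 libraries, 2 WT and 2 Ets1-/-. The authors aligned reads to mm9 with TopHat2 (2.0.13 in the submitters' processing notes), ran Cuffdiff and deposited, for each library, the FPKM of every gene symbol. The annotation, the Cuffdiff version and any scaling between libraries are not given in the sources used here. The files list 23309 entries, among them 27 symbols that had become dates, and 4 entries whose symbol occurs more than once were not used. Count tests do not suit FPKM and were not run.

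Limma 3.58.1 in R 4.3.3 (lmFit, eBayes with trend, 2 residual and 3.10 prior degrees of freedom) was fitted to log2(FPKM + 1), which understates changes of low genes, for the 10949 genes with a mean of at least 1 FPKM in either genotype, with Benjamini-Hochberg adjustment over all of them. Scripts were tested on simulated data. The libraries are described as biological replicates, and p-values measure the spread between them. Gene spans and GC content came from GENCODE M1 (mm9).

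The members and lists were chosen with earlier results of these data known. The genes named are all members, every called gene or else the 3 largest differences of the upstream, inhibitor and target lists, and the 3 genes most like the member with the largest difference. Other genes named (Chuk, Ikbkb, Ikbkg, Map3k14, the untested or near-identical list genes, and the examples of marker lists) were chosen after their values were seen. Settings varied were the pseudocount, the low-value filter, the scaling, the 2-fold minimum, the replicate block, each library left out and, added after seeing the data, GC centring and a crossed block. ChIP-seq and qPCR data of the study were not analysed here.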

Additional observations from a re-analysis of the deposited data

How the results depend on the processing

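Of the 10 members 0 were called under any of the 13 alternatives, of the upstream genes 1 and of the other inhibitors 0. Nfkb1, Nfkb2, Relb, Nfkbia and Tnfaip3 kept their sign in all 12 alternatives that give a difference, although Nfkb1 came to 0.00071 without Ets1-/- replicate 2 and Relb to -0.02 without Ets1-/- replicate 1. The cause of the changes below was not tested. The 186 calls over all genes became 75 with all genes above 0, 106 with a mean of at least 5 FPKM, 284 with GC centring and 99 to 116 with a library left out, and the 4 target calls became 1 with all genes above 0, 2 with at least 5 FPKM and 1 to 2 with a library left out. Rela turned to -0.00057 (log2) with quantile normalization and Nfkbie to 0.0015 with upper-quartile scaling. With a library left out, log2 differences ran from -0.63 to 0.34 for Rel, -0.13 to 0.22 for Rela, -0.13 to 0.38 for Nfkbib, -0.13 to 0.091 for Nfkbie and -0.20 to 0.33 for Bcl3, each crossing 0. In these fits the lone library of a genotype is assumed to vary like the other genotype. A replicate block in the fit gave 266 calls over all genes, 0 among the members and 4 among the targets. Same-numbered libraries did not deviate together (correlation -0.21 over genes, which are not independent), and nothing in the labels pairs them beyond the number. With the pairing crossed, a fit added after seeing the data, 409 genes, 0 members and 5 targets were called. This pairing coincides with the approximate relative depth. It joins WT replicate 2 (1.71) with Ets1-/- replicate 1 (1.65), and WT replicate 1 (1) with Ets1-/- replicate 2 (0.85). The part of depth in these calls was not tested. The reads behind each FPKM are not part of the files, so no counting error is given.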
